A study of Mus musculus with 6 samples.

Results

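The genes described here are 42 genes of fatty acid and phospholipid synthesis, chosen by their symbols from the 24421 genes of a count table made from sorted mouse alveolar type 2 (AT2) cells. They cover the making of fatty acids and its regulator *Srebf1*, their elongation and desaturation, their coupling to coenzyme A, the synthesis and remodelling of phosphatidylcholine and phosphatidylethanolamine, the glycerolipid backbone, and triglyceride storage. All 42 symbols were found in the table, and 40 of them had enough reads to be tested. Poly(A) RNA was sequenced from 3 AT2-CTRL and 3 AT2-CAB samples, with 1 library each. The study's methods do not say how many mice gave each sample. AT2-CTRL mice had the genotype Sftpc-CreERT2/+ with R26-tdTomato/+. AT2-CAB mice carried Sftpc-CreERT2/+ with R26-tdTomato/R26-caBmpr1a, in which the second allele at the locus encodes a BMP receptor that signals without ligand. Tamoxifen switches on these alleles in cells in which the *Sftpc* gene drives the Cre recombinase, so tdTomato marks AT2 cells and their descendants in both groups. The sort selects for tdTomato and not for the receptor, so cells that recombined only the tdTomato allele can be among the AT2-CAB cells, in a share that was not measured here. By the labels, the mice were 12 weeks old (AT2-CTRL replicates 1 and 3, AT2-CAB replicates 2 and 3) or 16 weeks old (AT2-CTRL replicate 2, AT2-CAB replicate 1).

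AT2 cells make pulmonary surfactant, most of which is phosphatidylcholine with saturated fatty acids, and store it in lamellar bodies. ATP citrate lyase (*Acly*), acetyl-CoA carboxylase (*Acaca*) and fatty acid synthase (*Fasn*) build palmitate from citrate, and the transcription factor SREBP1 (*Srebf1*) is a well-known activator of their genes. Elongases (*Elovl*) lengthen the chain, and desaturases (*Scd*, *Fads*) add double bonds. Choline enters phosphatidylcholine through choline kinase, the rate-limiting enzyme that forms CDP-choline (*Pcyt1a*) and a choline phosphotransferase, and a parallel branch through *Etnk1* and *Pcyt2* makes phosphatidylethanolamine.

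The libraries held from 21554249 to 28440227 counts. Levels are given in CPM, which are counts divided by a library size that was adjusted with a TMM factor. *Id1*, a direct target of BMP signaling, had 18.5, 20.8 and 19.2 CPM in AT2-CTRL replicates 1, 2 and 3 and 124, 177 and 411 CPM in AT2-CAB replicates 1, 2 and 3, and its log2 fold change was 3.61 ± 0.42 (SE, adjusted p = 0.0172) in edgeR's quasi-likelihood test. The transgene has no row of its own, and *Bmpr1a* had a log2 fold change of -0.015 ± 0.15 (SE, adjusted p = 0.983). AT2-CTRL replicate 1 and AT2-CAB replicate 3 stood apart from the rest along the first principal component, which held 49.3% of the variance. Reads of *Ddx3y*, *Uty*, *Kdm5d* and *Eif2s3y*, which lie on the Y chromosome, came to 171.8 and 158.0 CPM in these libraries and to 0 in the other 4. The labels do not give the sex of the mice. Results described in full that turn on these libraries are therefore given also with a term for Y-linked reads in the model, within the 4 libraries that lack such reads, and as the log2 ratio of AT2-CAB replicate 3 to AT2-CTRL replicate 1, which has no test. The AT2 markers were present at high levels in every library, and *Sftpc* had from 42699 to 60123 CPM.

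None of the 40 tested members passed an adjusted p of 0.05 between AT2-CAB and AT2-CTRL in edgeR's test on all 6 libraries, where 0.239% of all 16723 genes tested were called higher and 0.0120% lower. Here and throughout, a log2 fold change is given with its standard error (SE) and the p-value adjusted over all genes tested. The lowest adjusted p among the members was 0.186, for *Lpcat2*, and the highest was 0.989. Most members of fatty acid synthesis and desaturation had overlapping groups, while several genes of phospholipid head group addition, with *Acsl4* and *Plin2*, had lower values in AT2-CAB. Before adjustment, 6 members (15%) were lower with a p under 0.05, namely *Acsl4*, *Pcyt1a*, *Pcyt2*, *Cept1*, *Pisd* and *Plin2*, against 5.05% of all genes tested, and *Lpcat2* (2.5% of the members) was higher, against 4.62%. The 3 AT2-CAB values lay below the 3 AT2-CTRL values for 6 members (*Me1*, *Acsl4*, *Pcyt2*, *Cept1*, *Pisd* and *Plin2*; 15% against 10.1% of all genes) and above them for 4 (*Srebf1*, *Lpcat2*, *Lpin3* and *Dgat1*; 10% against 7.0%). The median log2 fold change of the members was -0.071, with 23 lower and 17 higher, beside -0.0096 over all genes. This sign depended on scaling and on a single library: the median was 0.054 with library size only, which moved the median of all genes to 0.12, and 0.038 without AT2-CAB replicate 3.

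Other fits called some of these genes. With a term for Y-linked reads, edgeR called *Acsl4*, *Pcyt1a*, *Cept1* and *Gpam* lower (4 of 40, against 1.26% of all genes) and *Lpcat2* higher (1 of 40, against 1.27%). Within the 4 libraries without Y-linked reads it called *Acsl4* lower (0.245% of all genes) and no member higher (0.447%). DESeq2, the package that the study used, called *Lpcat2* higher (1 of the 38 members that it gave an adjusted p, against 1.45%) and none lower (0.644%). It made 21.7% false calls on counts simulated with edgeR's dispersions. The fit with the term for Y-linked reads was not run on simulated counts, so it has no such rate. limma-voom called no member higher (0.161%) or lower (0.00598%).

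**Figure D1:**
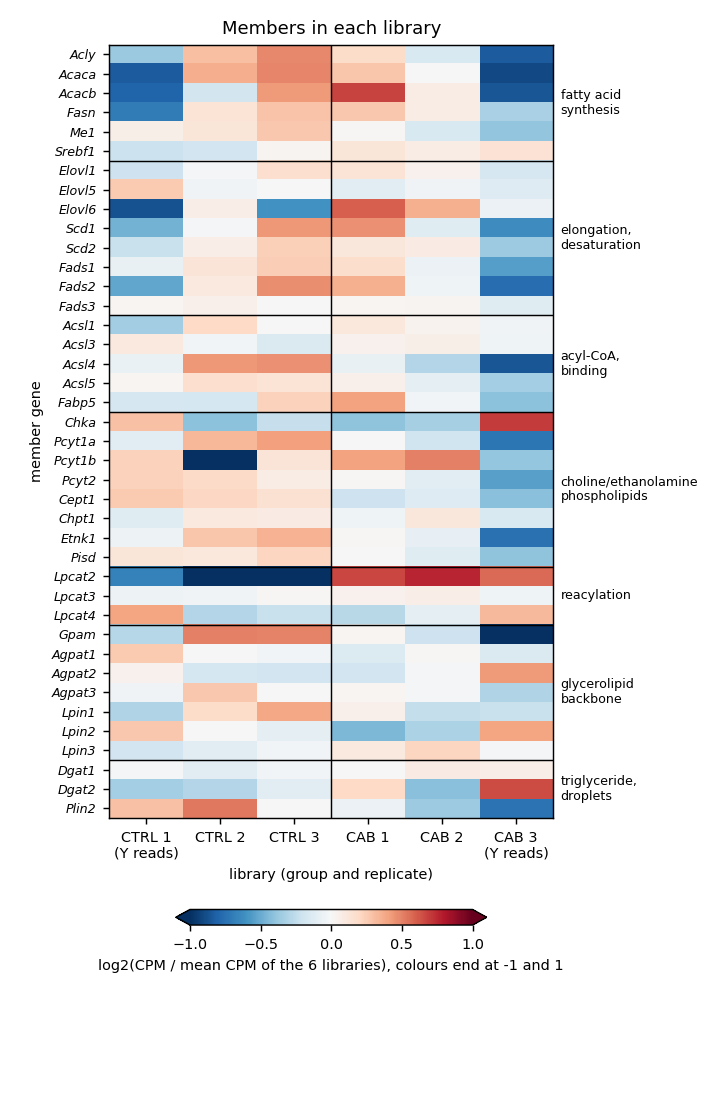
Level of each of the 40 tested members in each of the 6 libraries, as log2 of its CPM over its mean CPM in all 6 (blue lower, red higher, colours end at -1 and 1), with members ordered by role and the group boundary drawn as a vertical line. *Acly*, *Acaca*, *Acacb*, *Fasn*, *Elovl1*, *Scd1*, *Scd2*, *Fads1* and *Fads2* are blue in AT2-CTRL replicate 1 and AT2-CAB replicate 3, *Srebf1* is red in the latter, and *Lpcat2* is blue in the 3 AT2-CTRL and red in the 3 AT2-CAB libraries.

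Compared per length, as CPM per kilobase of exon (RPKM), the members spanned several orders of magnitude. In AT2-CTRL the highest level was that of *Scd1*, the stearoyl-CoA desaturase that makes monounsaturated fatty acids, with 3216 ± 997 RPKM (SD, n = 3). *Elovl1* followed with 911 ± 117 RPKM, *Fasn* with 562 ± 183, the fatty acid binding protein *Fabp5* with 422 ± 70.9, *Scd2* with 304 ± 48.0 and *Acly* with 283 ± 80.4 RPKM. *Scd1* stood above the others in every library, whereas *Fasn* and *Fabp5*, and *Scd2* and *Acly*, did not differ beyond their spread. In all, 13 members had over 100 RPKM in AT2-CTRL and 5 had under 1 RPKM, which were *Lpcat2*, *Elovl6*, *Elovl3*, *Pcyt1b* and *Chkb*. The 42 members took up 2.42%, 3.20% and 3.83% in AT2-CTRL and 4.01%, 3.21% and 2.54% in AT2-CAB of all counts, and *Scd1* alone took up between 1.07% and 2.12%.

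*Elovl3* and *Chkb* were not tested. *Elovl3*, an elongase best known from skin and brown fat, had 12, 7 and 0 counts in AT2-CTRL and 0, 0 and 14 in AT2-CAB. *Chkb*, the second choline kinase gene, had at most 4 counts in a library, but 1783 of its 1922 exonic bases (92.8%) are shared with the read-through gene *ChkbCpt1b*, and reads on shared bases were left out of the counting. Its level can therefore not be read from this table.

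**Figure D2:**
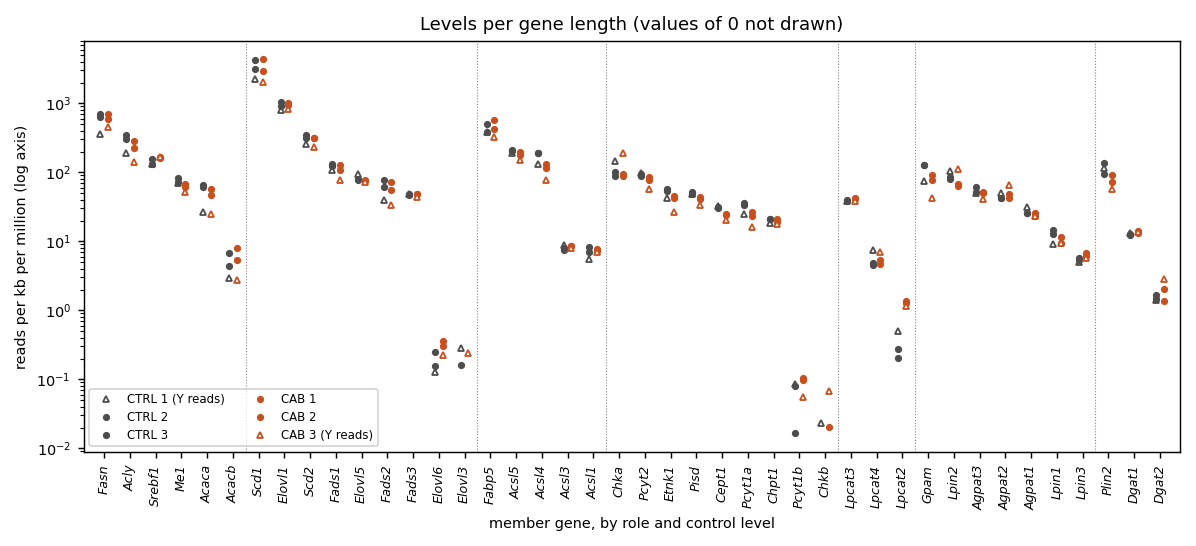
Level of each member in each library in RPKM on a log axis, members grouped by role and sorted within a role by their AT2-CTRL mean; grey marks are AT2-CTRL, orange marks AT2-CAB, and open triangles are the libraries with Y-linked reads. *Scd1* is highest at about 3216 RPKM in AT2-CTRL, and the points of both groups lie together for most genes; values of 0 are not drawn.

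In the fatty acid synthesis group, AT2-CTRL and AT2-CAB overlapped for the genes of the main pathway. *Fasn* had 3517, 6275 and 6959 CPM in AT2-CTRL replicates 1, 2 and 3 and 6882, 5982 and 4561 CPM in AT2-CAB replicates 1, 2 and 3. The lowest and the highest of these 6 values were both AT2-CTRL libraries, and the log2 fold change was 0.057 ± 0.28 (SE, adjusted p = 0.959). It was 0.10 (adjusted p = 0.746) with the term for Y-linked reads, -0.0088 (adjusted p = 0.986) within the 4 libraries without them, and 0.38 for the remaining pair, so its sign turned between these values. *Acaca*, whose product malonyl-CoA is the building block for *Fasn*, had 239, 547 and 597 CPM in AT2-CTRL and 516, 425 and 227 CPM in AT2-CAB, with a log2 fold change of -0.24 ± 0.38 (SE, adjusted p = 0.864). The lowest value in each group came from its library with Y-linked reads, and the other 4 libraries lay between 425 and 597 CPM. Its log2 fold change was -0.21 (adjusted p = 0.343) with the term, -0.25 (adjusted p = 0.369) within the 4 libraries and -0.073 for the remaining pair. *Acly* had 856, 1358 and 1544 CPM in AT2-CTRL and 1255, 995 and 619 CPM in AT2-CAB, with a log2 fold change of -0.39 ± 0.29 (SE, adjusted p = 0.697). Again AT2-CTRL replicate 1 and AT2-CAB replicate 3 were lowest in their groups and lower than the other 4. With the term the log2 fold change of *Acly* was -0.40 (adjusted p = 0.136), within the 4 libraries -0.34 (adjusted p = 0.313) and for the remaining pair -0.47, below 0 in each. The mitochondria-associated carboxylase gene *Acacb* had a low level of 40.0 ± 16.7 CPM in AT2-CTRL and 45.8 ± 22.4 CPM in AT2-CAB (SD, n = 3) and was lowest in the same libraries.

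*Srebf1* and *Me1* differed from these genes in that their groups did not overlap. *Srebf1* had 559, 569.8 and 661 CPM in AT2-CTRL and 706, 685 and 718 CPM in AT2-CAB. All AT2-CAB values were higher, by a small margin (685 against 661 CPM for the nearest pair), and the log2 fold change was 0.24 ± 0.13 (SE, adjusted p = 0.601). *Me1*, the malic enzyme that supplies NADPH for fatty acid synthesis, had 253, 263 and 292 CPM in AT2-CTRL and 245, 219 and 184 CPM in AT2-CAB, and its log2 fold change was -0.32 ± 0.14 (SE, adjusted p = 0.520). Over the 6 genes of the group, 3 were lower and 3 higher in AT2-CAB, with log2 fold changes between -0.39 and 0.24, and neither *Srebf1* nor *Me1* passed the test in any of the 20 alternative settings.

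**Figure D3:**
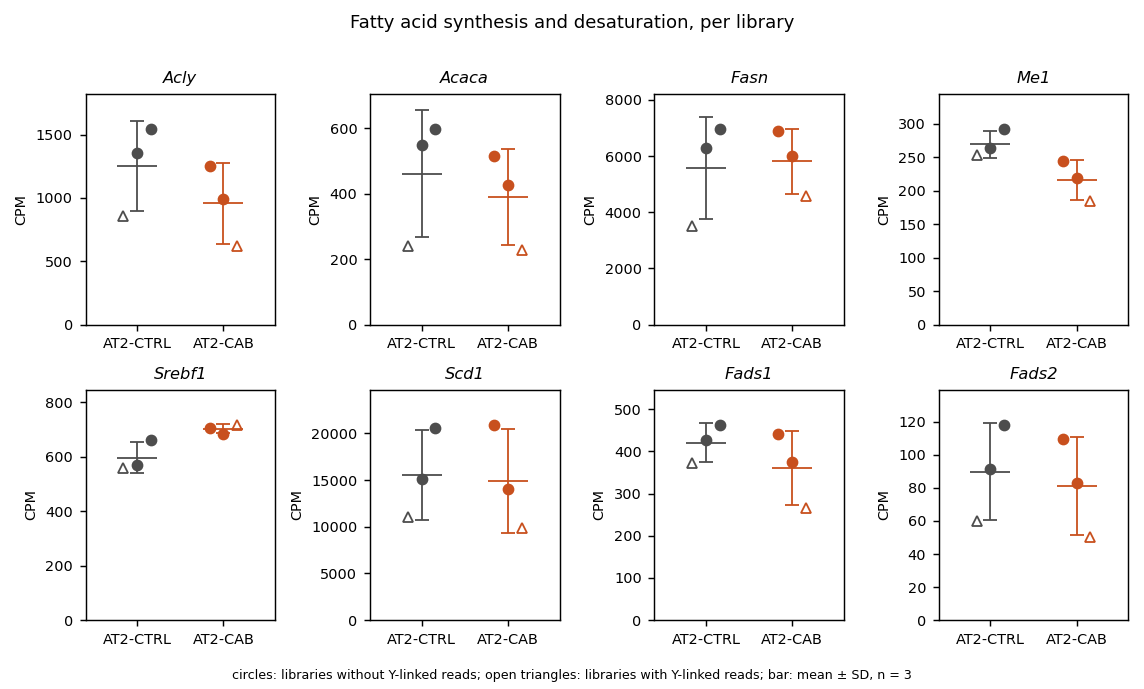
CPM of 8 genes of fatty acid synthesis and desaturation in each library, with the mean ± SD (n = 3) of each group; open triangles are the libraries with Y-linked reads. For *Acly*, *Acaca*, *Fasn*, *Scd1*, *Fads1* and *Fads2* both triangles lie below all circles, while for *Srebf1* the 3 AT2-CAB points lie above the 3 AT2-CTRL points and for *Me1* below them.

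Of the 8 elongation and desaturation genes tested, 6 had a negative and 2 a positive log2 fold change, none with an unadjusted p under 0.05. Their median was -0.071, beside -0.0096 over all genes. It was 0.054 with library size only, where the median of all genes was 0.12. Without AT2-CAB replicate 3 it was 0.11, beside -0.0035 over all genes. *Scd1* had 11004, 15060.1 and 20610.3 CPM in AT2-CTRL and 20914, 13999 and 9885 CPM in AT2-CAB. The range within each group covered nearly all of the range of the other, and the log2 fold change was -0.059 ± 0.33 (SE, adjusted p = 0.964), whose sign turned with the scaling (0.064 with library size only) and without AT2-CAB replicate 3 (0.20). With the term for Y-linked reads it was -0.072 (adjusted p = 0.867), within the 4 libraries -0.0010 (adjusted p = 0.999) and for the remaining pair -0.15. *Fads2*, the delta-6 desaturase that opens the polyunsaturated branch, had 59.7, 91.6 and 118 CPM in AT2-CTRL and 109.6, 83.0 and 50.5 CPM in AT2-CAB and a log2 fold change of -0.15 ± 0.31 (SE, adjusted p = 0.901), with -0.16 (adjusted p = 0.541) under the term, -0.094 (adjusted p = 0.854) in the 4 libraries and -0.24 for the remaining pair. Its neighbours *Fads1* and *Fads3* had log2 fold changes of -0.22 and -0.048, *Scd2* of -0.083, *Elovl1* of 0.020 and *Elovl5* of -0.17. *Elovl6*, the elongase that takes palmitate to stearate, was among the weakly measured members, with 17, 34 and 24 counts in AT2-CTRL and 46, 46 and 41 in AT2-CAB. That is 0.762, 1.46 and 0.914 CPM in AT2-CTRL and 2.11, 1.78 and 1.33 CPM in AT2-CAB, with overlapping groups and a log2 fold change of 0.73 ± 0.47 (SE, adjusted p = 0.648).

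*Acsl4*, an acyl-CoA synthetase with a known preference for arachidonic acid, was the member with the lowest log2 fold change. It had 704, 997 and 1009.8 CPM in AT2-CTRL replicates 1, 2 and 3 and 699.7, 603 and 407 CPM in AT2-CAB replicates 1, 2 and 3. Every AT2-CAB value lay below every AT2-CTRL value, with the nearest pair at 699.7 and 704 CPM, and the lowest library of each group was the library with Y-linked reads. The log2 fold change was -0.67 ± 0.23 (SE, adjusted p = 0.416), or 1.59-fold lower in AT2-CAB. With the term for Y-linked reads it was -0.68 (adjusted p = 0.0187), within the 4 libraries without such reads -0.59 (adjusted p = 0.0498), and the log2 ratio of the remaining pair was -0.79. Over all refits it ranged from -0.82 to -0.44. *Acsl4* lies on the X chromosome (chrX:142317993-142390535, reverse strand, mm10).

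The other acyl-CoA genes showed smaller differences. *Acsl5*, with 203 RPKM in AT2-CTRL the highest of the 4 synthetases on average, had a log2 fold change of -0.23 ± 0.14 (SE, adjusted p = 0.645), and *Acsl1* and *Acsl3* had 0.070 and 0.041. *Fabp5*, which carries fatty acids in the cytosol, had 364, 361 and 479.9 CPM in AT2-CTRL and 539, 401 and 309 CPM in AT2-CAB, so that AT2-CAB held both its highest and its lowest value. Its log2 fold change was 0.050 ± 0.22 (SE, adjusted p = 0.952).

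Among the 8 tested genes of choline and ethanolamine phospholipid synthesis, 6 were lower in AT2-CAB, 4 of them with an unadjusted p under 0.05, against 5.05% of all genes tested, and the median log2 fold change was -0.34, beside -0.0096 over all genes. The median stayed below 0 in every refit and scaling, from -0.41 to -0.17, and was nearest to 0 within the 4 libraries without Y-linked reads. *Pcyt1a* had 129, 175 and 184 CPM in AT2-CTRL and 139, 121 and 83.8 CPM in AT2-CAB. AT2-CAB replicate 1 lay above AT2-CTRL replicate 1, so the groups overlapped by this pair, and the log2 fold change was -0.51 ± 0.21 (SE, adjusted p = 0.493). With the term for Y-linked reads it was -0.52 (adjusted p = 0.0311), within the 4 libraries -0.43 (adjusted p = 0.0896), and for the remaining pair -0.62. *Pcyt1b*, its paralog on the X chromosome, had at most 14 counts in a library.

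*Cept1*, which makes both phosphatidylcholine and phosphatidylethanolamine in the last step of the pathway, had 95.3, 91.9 and 88.5 CPM in AT2-CTRL and 68.9, 72.9 and 59.5 CPM in AT2-CAB. The groups were apart by more than the spread within either, 91.9 ± 3.40 and 67.1 ± 6.90 CPM (SD, n = 3). Its log2 fold change was -0.45 ± 0.12 (SE, adjusted p = 0.261), with -0.46 (adjusted p = 0.0476) under the term for Y-linked reads, -0.31 (adjusted p = 0.156) in the 4 libraries and -0.68 for the remaining pair. Of its exonic bases, 26.6% are shared with the neighbouring gene *Dennd2d*, so its level is understated, since reads on shared bases were left out.

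*Pcyt2*, which forms CDP-ethanolamine, had 180.2, 175 and 162 CPM in AT2-CTRL and 155, 143 and 105 CPM in AT2-CAB, with no overlap and a log2 fold change of -0.36 ± 0.16 (SE, adjusted p = 0.511). *Pisd*, which makes phosphatidylethanolamine from phosphatidylserine in mitochondria, had 104, 103 and 111 CPM in AT2-CTRL and 95.5, 87.7 and 72.1 CPM in AT2-CAB and a log2 fold change of -0.31 ± 0.13 (SE, adjusted p = 0.491). Neither passed with the term for Y-linked reads, and both were nearer to 0 within the 4 libraries. For *Pcyt2* these values were -0.38 (adjusted p = 0.169) and -0.15 (adjusted p = 0.504), with -0.78 for the remaining pair, so that the difference was smaller by more than 2 times without the libraries with Y-linked reads. For *Pisd* they were -0.32 (adjusted p = 0.135) and -0.19 (adjusted p = 0.400), with -0.53 for the remaining pair. *Pisd* is uncertain, because the near-identical copies *Pisd-ps1* and *Pisd-ps2* had 237 and 33.5 CPM on average in AT2-CTRL and log2 fold changes of -0.067 and 0.026.

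*Etnk1*, the ethanolamine kinase, was also lower on average and had a log2 fold change of -0.43 ± 0.21 (SE, adjusted p = 0.559), with -0.46 (adjusted p = 0.0576) under the term for Y-linked reads, -0.31 (adjusted p = 0.149) in the 4 libraries and -0.69 for the remaining pair. *Chpt1* and *Chka* differed less between the groups. *Chpt1*, the phosphotransferase that makes phosphatidylcholine in the Golgi, had 61.8, 72.0 and 70.9 CPM in AT2-CTRL and 65.2, 72.5 and 60.3 CPM in AT2-CAB and a log2 fold change of -0.048 ± 0.12 (SE, adjusted p = 0.917). *Chka*, the first enzyme of the choline branch, had 387, 237 and 269 CPM in AT2-CTRL and 239, 251 and 514 CPM in AT2-CAB, where the 2 libraries with Y-linked reads were the highest. Its log2 fold change was 0.17 ± 0.31 (SE, adjusted p = 0.890), with 0.10 (adjusted p = 0.675) under the term, -0.017 (adjusted p = 0.959) within the other 4 libraries and 0.41 for the remaining pair.

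The AT2 markers were lower in AT2-CAB as well, so their values stand beside these differences. The 12 AT2 markers summed to 170215, 155565 and 153264 CPM in AT2-CTRL and 134736, 120880.0 and 110108 CPM in AT2-CAB, without overlap, and 11 of the 12 had a negative log2 fold change, with a median of -0.53 and none called. In bulk RNA, fewer cells of a type and less RNA of these genes per cell cannot be told apart. The part of the AT2 marker level in the lower phospholipid genes was not tested.

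**Figure D4:**
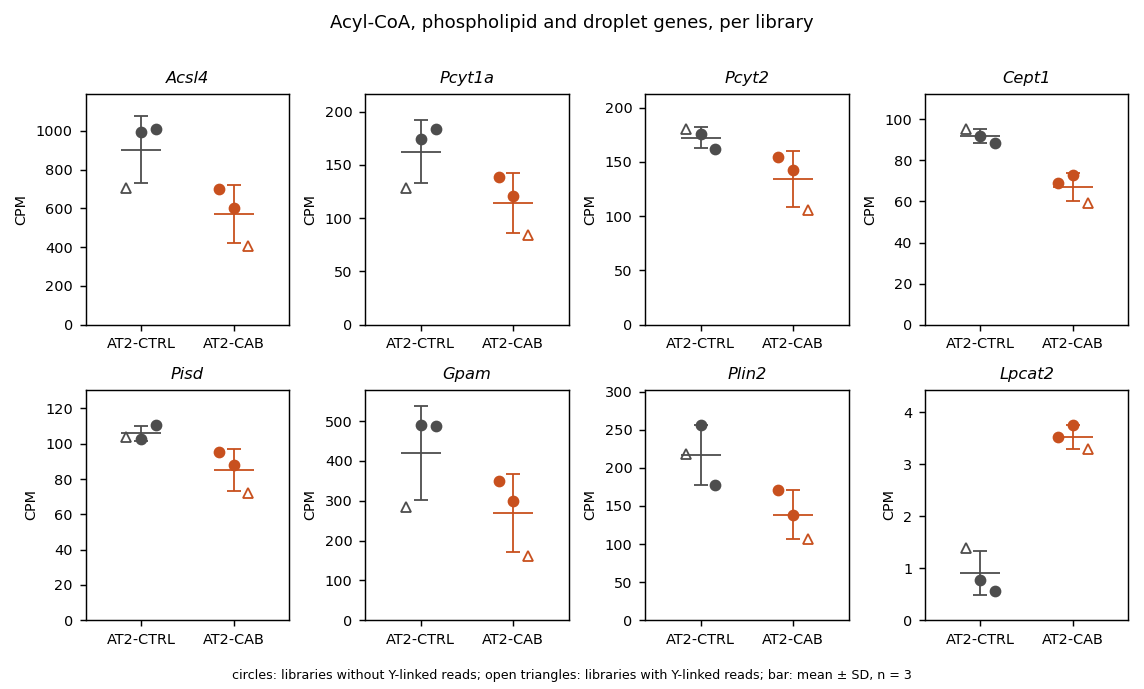
CPM of 8 genes of acyl-CoA formation, phospholipid synthesis, reacylation and lipid droplets in each library, with the mean ± SD (n = 3) of each group; open triangles are the libraries with Y-linked reads. The 3 AT2-CAB points lie below the 3 AT2-CTRL points for *Acsl4*, *Pcyt2*, *Cept1*, *Pisd* and *Plin2*, the groups overlap for *Pcyt1a* and *Gpam*, and for *Lpcat2* the 3 AT2-CAB points lie between 3.29 and 3.76 CPM, above the AT2-CTRL points.

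*Lpcat2*, which reacylates lysophospholipids and also makes platelet-activating factor, was the member with the highest log2 fold change. It had 1.39, 0.772 and 0.571 CPM in AT2-CTRL replicates 1, 2 and 3 and 3.53, 3.76 and 3.29 CPM in AT2-CAB replicates 1, 2 and 3, or 31, 18 and 15 against 77, 97 and 101 counts. The values of AT2-CAB were close to each other and all above those of AT2-CTRL. The log2 fold change was 1.95 ± 0.43 (SE, adjusted p = 0.186), or 3.87-fold, with 2.01 (adjusted p = 0.0315) under the term for Y-linked reads, 2.47 (adjusted p = 0.0513) in the 4 libraries, and 1.24 for the remaining pair. DESeq2 gave it an adjusted p of 0.000748. The gene stayed at a low level in AT2-CAB too, 1.26 ± 0.0849 RPKM (SD, n = 3), and a read pair can count as 2 here, which overstates the precision of such counts.

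Since *Lpcat2* is also known from macrophages, the levels of other cell types are given beside it. The 12 leukocyte markers summed to 77.5, 86.3 and 95.0 CPM in AT2-CTRL and 189, 115 and 66.3 CPM in AT2-CAB, and 11 of the 12 had a positive log2 fold change, none called. In AT2-CAB replicate 3 that sum was below every AT2-CTRL library, and *Lpcat2* was above every AT2-CTRL library. Of the alveolar macrophage list, 9 of 10 genes were in the table, and they summed to 123, 119.7 and 136 CPM in AT2-CTRL and 204, 105 and 64.0 CPM in AT2-CAB. Of the 8 tested, 7 had a positive log2 fold change, 2 of them (*Car4* and *Krt79*) without overlap, with a median of 0.72 and none called. *Lpl*, which is no marker of macrophages alone, made up much of the sum and was the 1 with a negative value, -0.74. The sums of the 10 mesenchymal markers were 689, 784 and 662 CPM in AT2-CTRL and 899.6, 1032 and 899 CPM in AT2-CAB, without overlap, and those of the 10 endothelial markers were 274, 572 and 389 CPM in AT2-CTRL and 495, 814 and 570.5 CPM in AT2-CAB, with overlap. All 10 markers of each of these lists had a positive log2 fold change and none was called. The part of leukocytes, macrophages, mesenchymal or endothelial cells in the level of *Lpcat2* was not tested.

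*Lpcat3* and *Lpcat4* had log2 fold changes of 0.049 ± 0.10 (SE, adjusted p = 0.901) and 0.017 ± 0.24 (SE, adjusted p = 0.989). *Lpcat3*, which inserts polyunsaturated chains into phosphatidylcholine, was among the steadiest members, at 98.4 ± 2.06 CPM in AT2-CTRL and 102 ± 4.05 CPM in AT2-CAB (SD, n = 3), with 11.6% of its bases shared with *Emg1*.

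Of the 7 glycerolipid backbone genes, 5 were lower and 2 higher in AT2-CAB. *Gpam*, the mitochondrial acyltransferase of the first step, had 284, 491 and 488 CPM in AT2-CTRL and 350.4, 299 and 160.4 CPM in AT2-CAB. Both libraries with Y-linked reads lay below the other 4, at 0.581 and 0.494 times the mean of the other libraries of their group. On all 6 libraries the log2 fold change was -0.64 ± 0.31 (SE, adjusted p = 0.556). It was -0.67 (adjusted p = 0.0191) with the term for Y-linked reads, -0.56 (adjusted p = 0.0547) in the 4 libraries, and -0.82 for the remaining pair.

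*Lpin2*, a phosphatidate phosphatase, had 608, 506 and 475 CPM in AT2-CTRL and 369, 404 and 665 CPM in AT2-CAB and a log2 fold change of -0.14 ± 0.23 (SE, adjusted p = 0.866). Its highest values were the 2 libraries with Y-linked reads, and among the other 4 the AT2-CAB values lay below the AT2-CTRL values (-0.31 (adjusted p = 0.196)). The log2 fold change of *Lpin2* was -0.19 (adjusted p = 0.438) with the term for Y-linked reads. For the remaining pair the log2 ratio was 0.13, so the sign turned. *Lpin3* had no overlap between groups, at 18.8 ± 1.06 and 21.8 ± 1.78 CPM (SD, n = 3), with a log2 fold change of 0.21 ± 0.13 (SE, adjusted p = 0.633). The log2 fold changes of *Lpin1*, *Agpat1*, *Agpat2* and *Agpat3*, which are the other phosphatase and the acyltransferases of the second step, were -0.25, -0.17, 0.20 and -0.18.

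*Plin2*, the main coat protein of lipid droplets in many cells, had 218, 257 and 178 CPM in AT2-CTRL and 171, 139 and 107 CPM in AT2-CAB. The AT2-CAB values were all lower, with the nearest pair at 171 and 178 CPM. The log2 fold change was -0.65 ± 0.20 (SE, adjusted p = 0.364), with -0.67 (adjusted p = 0.0783) under the term for Y-linked reads, -0.46 (adjusted p = 0.305) in the 4 libraries and -1.03 for the remaining pair. *Dgat1*, which makes triglycerides, had 23.1, 21.6 and 22.7 CPM in AT2-CTRL and 23.1, 24.6 and 24.3 CPM in AT2-CAB. These values barely stood apart and the log2 fold change was 0.10 ± 0.11 (SE, adjusted p = 0.815). *Dgat2*, the other enzyme of that step, had a log2 fold change of 0.46 ± 0.33 (SE, adjusted p = 0.680) on 71 to 195 counts in a library.

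**Figure D5:**
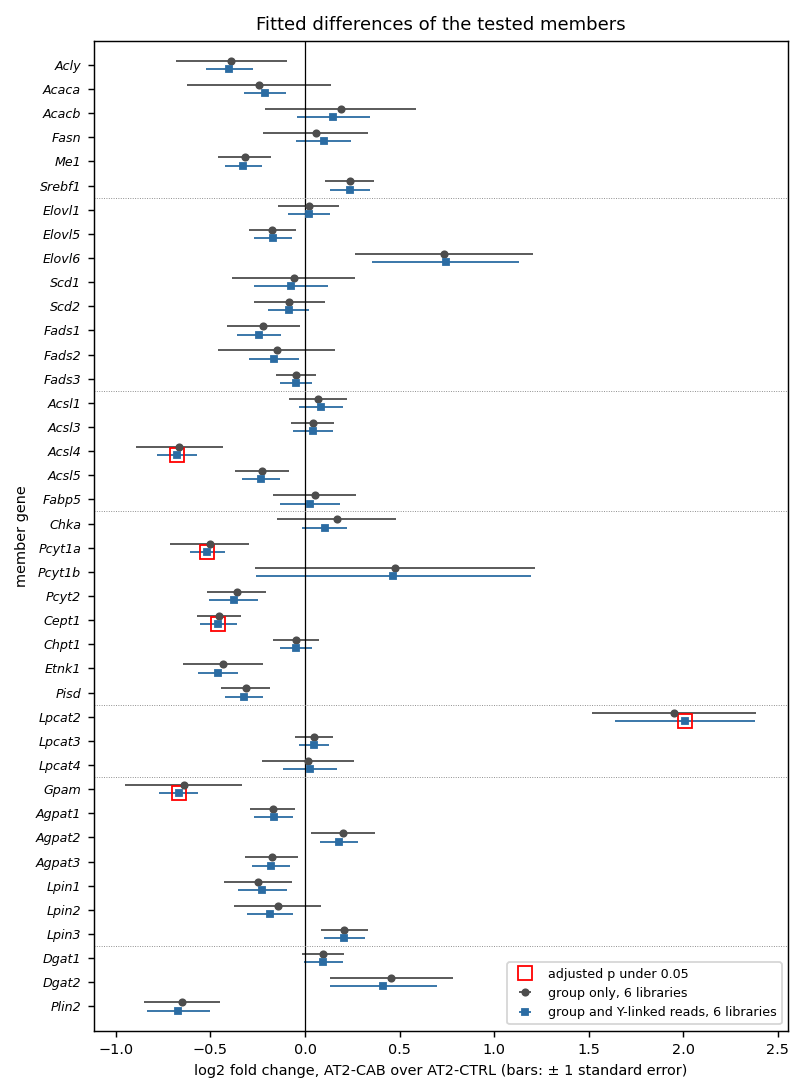
Log2 fold change (AT2-CAB over AT2-CTRL) of each tested member, with bars of 1 standard error, from the fit on group only (grey circles) and the fit with a term for Y-linked reads (blue squares); red squares mark an adjusted p under 0.05. The estimates of both fits lie close together while the bars of the second are shorter for most members, and the 5 marked genes are *Acsl4*, *Pcyt1a*, *Cept1*, *Lpcat2* and *Gpam*, all in the second fit.

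For *Acly*, *Acaca*, *Acacb*, *Fasn*, *Elovl1*, *Scd1*, *Scd2*, *Fads1* and *Fads2* the range within each group was wider than the difference between the group means. In both libraries with Y-linked reads, 14 of the 40 members (35%) lay below the other 4 libraries, against 15.8% of all genes tested, and 4 members (10%) lay above them, against 19.5%. The 14 were *Acly*, *Acaca*, *Acacb*, *Fasn*, *Elovl1*, *Scd1*, *Scd2*, *Fads1*, *Fads2*, *Acsl1*, *Chpt1*, *Lpcat3*, *Gpam* and *Agpat3*, and the 4 were *Chka*, *Lpcat4*, *Agpat2* and *Lpin2*. AT2-CTRL replicate 1 held 0.417 times the *Acaca*, 0.531 times the *Fasn* and 0.617 times the *Scd1* of the other AT2-CTRL libraries. AT2-CAB replicate 3 held 0.483, 0.709 and 0.566 times those of the other AT2-CAB libraries. These libraries share the Y-linked reads and not the genotype or the replicate number. Both are labelled 12 weeks old, as are AT2-CTRL replicate 3 and AT2-CAB replicate 2. What else sets the libraries with Y-linked reads apart is not in the labels. AT2-CAB replicate 3 was the lowest of all 6 for 23 of the 40 members (57.5%), against 26.8% of all genes tested, and it also had the highest *Id1*. No test was made of these orders, which were noticed in the data.

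The 42 genes were spread over 17 chromosomes, with 9 on chromosome 19 (21.4%, where 3.23% of the genes of the table lie) and 5 on chromosome 11. On chromosome 19, *Fads3* (chr19:10041548-10059671), *Fads2* (chr19:10064164-10101503) and *Fads1* (chr19:10182888-10196872) are neighbours. *Scd2* (chr19:44293676-44306862) and *Scd1* (chr19:44394450-44407709) lie close together, with *Scd4* (chr19:44333326-44346743), which is not a member, between them. *Fads1*, *Fads2*, *Scd1* and *Scd2* were all lowest in AT2-CAB replicate 3 and lower in AT2-CTRL replicate 1 than in the other AT2-CTRL libraries. *Fads3* varied little, from 143 to 161 CPM.

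Promoter windows from 250 bases before to 50 bases after the start site were given by RefSeq (GRCm38.p6, the same sequence as mm10) for 34 of the 42 members, in 50 windows. They were searched on both strands for TCACNCCAC, a form of the sterol regulatory element that SREBP binds, CACGTG (E-box), CCAAT (the NF-Y box), GGCGCC, a BMP-SMAD element, and the longer BMP response element, which contains GGCGCC. The first was found in 3 of the members' 50 windows (6%), which belong to 2 genes, *Acsl1* and *Pcyt1a*, against 1.24% of all 32851 windows and 1.23% of those of genes tested. No window was given for *Scd1*, *Scd2*, *Elovl3*, *Fads1*, *Fabp5*, *Pcyt2*, *Dgat1* and *Dgat2*. CACGTG was found in 8% against 7.15% of all windows (9.14% of those of genes tested) and CCAAT in 50% against 37.4% (37%). GGCGCC was found in 28% against 11.9% (19.1% of those of genes tested), and the longer BMP response element in 0% against 0.557% (0.889%). The windows of 5 members are shown because these genes carry the patterns above: *Fasn* and *Acly* for the difference between libraries, *Acsl4* and *Pcyt1a* for the lower level in AT2-CAB, and *Lpcat2* for the higher level. Capitals mark the matches, and the windows lie at chr11:120824498-120824797, chr11:100527951-100528250 and chrX:142390486-142390785 on the reverse strand and at chr16:32430671-32430970 and chr8:92855083-92855382 on the forward strand.
Fasn: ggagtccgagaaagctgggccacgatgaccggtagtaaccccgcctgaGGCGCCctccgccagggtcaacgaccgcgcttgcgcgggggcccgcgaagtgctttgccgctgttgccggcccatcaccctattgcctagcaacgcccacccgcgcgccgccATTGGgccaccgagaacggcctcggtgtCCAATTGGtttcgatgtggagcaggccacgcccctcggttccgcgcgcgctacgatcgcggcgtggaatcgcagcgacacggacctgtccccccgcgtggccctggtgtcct
Acly: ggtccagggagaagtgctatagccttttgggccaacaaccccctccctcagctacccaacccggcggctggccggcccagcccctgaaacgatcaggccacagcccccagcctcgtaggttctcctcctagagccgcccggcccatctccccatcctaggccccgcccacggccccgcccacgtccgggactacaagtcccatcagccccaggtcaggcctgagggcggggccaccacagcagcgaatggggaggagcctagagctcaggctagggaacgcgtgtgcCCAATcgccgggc
Acsl4: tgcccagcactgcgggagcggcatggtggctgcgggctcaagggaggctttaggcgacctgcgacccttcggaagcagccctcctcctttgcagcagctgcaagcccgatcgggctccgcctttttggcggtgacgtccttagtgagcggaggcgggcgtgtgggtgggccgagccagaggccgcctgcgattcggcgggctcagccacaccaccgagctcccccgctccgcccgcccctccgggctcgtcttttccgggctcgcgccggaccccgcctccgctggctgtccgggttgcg
Pcyt1a: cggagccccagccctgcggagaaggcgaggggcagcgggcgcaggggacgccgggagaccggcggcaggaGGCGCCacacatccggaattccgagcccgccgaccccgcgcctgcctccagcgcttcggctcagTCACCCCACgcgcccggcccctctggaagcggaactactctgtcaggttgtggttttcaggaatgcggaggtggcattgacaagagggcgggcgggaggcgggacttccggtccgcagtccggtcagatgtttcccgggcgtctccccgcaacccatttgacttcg
Lpcat2: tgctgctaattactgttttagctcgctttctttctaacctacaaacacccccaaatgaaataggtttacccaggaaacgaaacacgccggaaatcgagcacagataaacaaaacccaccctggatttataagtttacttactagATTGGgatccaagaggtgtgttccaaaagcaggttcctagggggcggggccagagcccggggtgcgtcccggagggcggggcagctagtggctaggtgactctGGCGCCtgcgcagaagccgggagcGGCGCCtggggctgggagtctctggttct
In *Fasn*, matches to CCAAT or its complement begin 90, 62 and 59 bases before the start site and a GGCGCC 202 bases before it. *Acly* has a CCAAT 37 bases after the start site, and *Acsl4* has none of the searched letters in this window. *Pcyt1a* has TCACCCCAC 116 bases before the start site and GGCGCC 180 bases before it. *Lpcat2* has a match to CCAAT 106 bases before the start site and GGCGCC 3 bases before and 21 bases after it. Its start site in RefSeq lies 17 bases from that of the count table, and those of the other 4 genes coincide. A match is only a description of the letters, and no binding was measured here.

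Among 68 other genes of the same pathways, all of which were in the table, 66 were tested. Of these, 48 were lower and 18 higher in AT2-CAB, with a median log2 fold change of -0.14 (-0.0088 with library size only). Over all 16723 genes tested, 8563 were lower and 8160 higher, and the median was -0.0096 (0.12 with library size only). *Acss2*, which makes acetyl-CoA from acetate, was the only one of the 66 to pass on all 6 libraries. It had 23.7, 28.9 and 27.3 CPM in AT2-CTRL and 50.7, 45.7 and 48.1 CPM in AT2-CAB and rose by a log2 fold change of 0.85 ± 0.12 (SE, adjusted p = 0.0367), with no AT2-CAB value near any AT2-CTRL value. It passed in the 4 libraries (0.81 (adjusted p = 0.0225)) and with the term for Y-linked reads (adjusted p = 0.00637), but not when any single library was left out, where the adjusted p was between 0.0858 and 0.226 with log2 fold changes from 0.77 to 0.91, nor with age as a covariate (0.0622) or the replicate number as a block (0.15).

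Before adjustment, 5 of the 66 were lower with a p under 0.05 (7.58%, against 5.05% of all genes tested) and 2 were higher (3.03%, against 4.62%), which were *Acss2* and the acyltransferase gene *Agpat4*. The 5 were *Insig1* and *Insig2*, which hold SREBP in the endoplasmic reticulum, *Mid1ip1*, which promotes the assembly of acetyl-CoA carboxylase, the fatty acid transporter gene *Cd36*, and *Abhd5*, a co-activator of lipolysis. *Cd36* had 1605, 1655 and 1608 CPM in AT2-CTRL and 1119, 866 and 642 CPM in AT2-CAB. Its 3 AT2-CTRL values were nearly equal and all AT2-CAB values were lower, with a log2 fold change of -0.89 ± 0.20 (SE, adjusted p = 0.198). With the term for Y-linked reads *Insig1*, *Cd36* and *Abhd5* passed as lower, at -0.51 (adjusted p = 0.0419), -0.92 (adjusted p = 0.0253) and -0.79 (adjusted p = 0.0363). Within the 4 libraries none of them passed, at -0.54 (adjusted p = 0.0580), -0.69 (adjusted p = 0.0639) and -0.53 (adjusted p = 0.0955). The log2 ratios of the remaining pair were -0.38, -1.32 and -1.25. None passed when any single library was left out.

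Of the regulators, *Insig1* had 355, 477 and 455 CPM in AT2-CTRL and 337, 288 and 273 CPM in AT2-CAB, and its log2 fold change was -0.52 ± 0.16 (SE, adjusted p = 0.352). *Srebf2*, the regulator of sterol synthesis, had -0.33 ± 0.20 (SE, adjusted p = 0.637), *Cebpa*, a factor that AT2 cells need for surfactant, had -0.26 ± 0.14 (SE, adjusted p = 0.587), and *Nr1h3*, the liver X receptor alpha gene, had 0.12 ± 0.14 (SE, adjusted p = 0.816). *Pparg* was at a low level, with 88, 51 and 103 counts in AT2-CTRL and 71, 88 and 93 in AT2-CAB and a log2 fold change of -0.053 ± 0.33 (SE, adjusted p = 0.969). *Lpcat1*, the AT2 enzyme that makes dipalmitoyl phosphatidylcholine, had 1127, 1728 and 1739 CPM in AT2-CTRL and 1594, 1347 and 874 CPM in AT2-CAB. None of these genes but *Insig1* passed in a fit named here. For *Lpcat1* the log2 fold change was -0.27 ± 0.26 (SE, adjusted p = 0.761), with -0.28 (adjusted p = 0.228) under the term for Y-linked reads, -0.21 (adjusted p = 0.448) in the 4 libraries and -0.37 for the remaining pair, and AT2-CTRL replicate 1 and AT2-CAB replicate 3 were the lowest, as for *Fasn* and *Scd1*. *Selenoi*, the ethanolamine phosphotransferase, listed as *Ept1*, had a log2 fold change of -0.11 ± 0.16 (SE, adjusted p = 0.854).

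Markers of fat cells, which share many of these genes, stayed at a low level, with sums of the 5 adipocyte markers of 9.10, 2.06 and 2.51 CPM in AT2-CTRL and 6.19, 2.37 and 10.7 CPM in AT2-CAB, and *Adipoq* had no counts in 4 of the 6 libraries. The 8 airway markers summed to 826, 909 and 722 CPM in AT2-CTRL and 838, 1175 and 1219 CPM in AT2-CAB, with *Krt5* at 0 in every library. Of the 7 tested, 5 had a positive and 2 a negative log2 fold change, with a median of 0.30. *Tppp3* and *Foxj1* were higher without overlap and *Cyp2f2* was lower without overlap (-0.53). Only *Tppp3* was called, at a log2 fold change of 1.85 (adjusted p = 0.0165). The 12 AT1 markers summed to 4488, 4207 and 3502 CPM in AT2-CTRL and 3773, 4313 and 3899.5 CPM in AT2-CAB, with overlapping groups. Of the 12, 9 had a positive and 3 a negative log2 fold change, with a median of 0.24. *Aqp5* was lower without overlap (-0.53), and none was called.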

How the data were processed

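The authors trimmed poly(A/T) tails and adaptors, aligned 150 bp read pairs to mm10 with Hisat2, removed duplicate reads with SAMtools and counted on genes with featureCounts (version 1.5.3 per the file headers). They deposited raw counts without normalization, which are whole numbers here. The counting used neither strand nor reads on overlapping genes, and the methods speak of fragments, but the header holds no option for read pairs, so the counts are treated as reads, with halved counts as an alternative. Coordinates and gene lengths are those of the table.

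The 42 members, the 68 other pathway genes, the marker lists and the tests were chosen with earlier results of these data known. Groups and replicate numbers were taken from the labels. The main test was edgeR's quasi-likelihood test (edgeR 4.0.16, R 4.3.3) on group only, after TMM scaling and edgeR's expression filter at a minimum count of 10, with Benjamini-Hochberg adjustment over 16723 genes. A gene was called at an adjusted p under 0.05. SE is the size of the log2 fold change over the square root of F. DESeq2 1.42.0 and limma-voom (limma 3.58.1) were alternatives, with other scalings and filters, covariates for age and Y-linked reads, the replicate number as a block, 4 libraries, each library left out, halved counts and other thresholds. Values in every library are given for members with an unadjusted p under 0.05 and for 17 members named whatever their values, and other pathway genes were named if called or if on a fixed list of 7. *Insig2*, *Mid1ip1*, *Cd36*, *Abhd5* and *Agpat4*, and single values of other members, were added after their values were seen. In a simulation of this comparison with 200 genes shifted by a log2 of 2, edgeR recovered 75.1% with 5.30% false calls in at least 16337 genes, and DESeq2 82.5% with 21.7% in at least 16721. The simulated counts were drawn with edgeR's dispersions and independently for each library, so they lack the structure that libraries share here. The fit with the term for Y-linked reads was not part of the simulation. An exact two-sided permutation test of 3 against 3 cannot give a p below 0.1. The labels say that each library is a separate sample. A count of 3, the floor used here, is between 0.0976 and 0.138 CPM and covers counting error only. The check of the replicate numbers is given with the alternatives. Promoter windows and older symbols were taken from RefSeq tables, by symbol.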

Additional observations from a re-analysis of the deposited data

How the results depend on the processing

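No member changed direction with a call under any of the 20 alternatives. The count of 0 members called became 1 higher with DESeq2, 1 higher and 4 lower with the term for Y-linked reads, and 1 lower within the 4 libraries, and it stayed at 0 in the other 17. Among the other pathway genes, the 1 called higher became 0 with the replicate block, with age as a covariate, with a fold change over 2 and without any single library, and the 0 called lower became 2 with DESeq2 and 3 with the term for Y-linked reads. Over all genes, 40 were higher and 2 lower. There were 198 higher and 88 lower with DESeq2, 62 and 5 without an expression filter, 213 and 210 with the term for Y-linked reads, and 73 and 40 within the 4 libraries. The number lower was 1 with limma-voom, upper-quartile scaling, library size only or age, 5 with the replicate block and 6 at an adjusted p under 0.1. Leaving out each library in turn gave between 6 and 59 higher and between 0 and 4 lower: 12 higher without AT2-CTRL replicate 1, 6 without replicate 2 and 7 without replicate 3, and 59, 8 and 25 without AT2-CAB replicates 1, 2 and 3. Deviations from the group means of same-numbered libraries correlated at -0.24, 0.20 and -0.53, so no pairing by replicate number was seen. This does not exclude a pairing. AT2-CTRL replicate 1 and AT2-CAB replicate 3 correlated at 0.61 and weigh on the other values through the group means. The replicate block changed no call of a member. The causes of these moves were not tested. How often differences of the size of those of *Fasn* or *Scd1* would be called with 3 libraries a group was not tested.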
